A study of Homo sapiens with 2 samples.

Results

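The zinc finger genes of chromosome 19 were taken as the protein-coding RefSeq genes on that chromosome whose symbol is ZNF followed by digits alone. This rule, which used no measured value, gave 240 genes with a known strand among 1409 protein-coding genes of the chromosome and 19719 in the genome. The comparison genes were the other 1169 protein-coding genes of chromosome 19. Most of the ZNF genes code for KRAB zinc finger proteins, and 208 of the 240 were placed in that class from their translated transcripts. Another 31 had neither a KRAB nor a SCAN domain, and ZNF444 had a SCAN domain, which joins zinc finger proteins into dimers, without KRAB. The median number of zinc fingers in a protein was 12, with a range from 1 to 39.

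Chromatin came from untreated MDA-MB-231, a widely used line of human breast cancer cells that lack hormone receptors, and 1 library was made with an antibody to PRMT6 and 1 with an antibody to PARP1. PRMT6 is a nuclear enzyme that methylates arginines in histones and other proteins, and PARP1 attaches ADP-ribose chains to proteins at DNA breaks and at chromatin. The study's methods give CUT&Tag as the assay (a transposase cuts where the antibody is bound), whereas the labels also describe ligation of adaptors to precipitated chromatin, so the library chemistry is uncertain. The values are lists of peaks, stretches with more sequenced fragments than their surroundings, with 9080 peaks for PRMT6 and 11651 for PARP1, of which 604 and 680 lay on chromosome 19. The read depth is unknown from these lists, which give no read counts.

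KRAB zinc finger proteins bind DNA, often inside transposable elements, through arrays of zinc fingers. The KRAB domain recruits TRIM28, which in turn brings the histone methyltransferase SETDB1 and heterochromatin proteins, and thereby silences the bound site. The genes arose largely by tandem duplication and stand in clusters along chromosome 19. Their finger arrays are coded in the last exon, and this 3′ part of the genes is known in many cells as a site of TRIM28 and of methylated histone H3. 

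The promoter window ran from 3 kb before to 3 kb after the 5′ end of the gene record, and a gene had a promoter peak where any base of a peak fell in it. Neither antibody has a replicate, so gene groups were compared by their intervals and not by a test. Intervals are exact at 95%, binomial (Clopper-Pearson) for shares and Poisson for densities. They cover counting error only and treat genes and peaks as independent, although neighbouring genes can share a peak. The score of a peak is its p-value from the authors' peak caller on the −log10 scale, and rank 1 is the best score in its own list. Scores are not comparable between the lists.

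The promoters at which the peaks were found are shown by the 250 bases before the RefSeq start site (assembly GRCh38.p14), read in the direction of the gene. The first set is taken from the 5 genes that ranked best on average over the lists. Of these, ZNF524 is named only. Capitals mark the words searched on both strands, namely the 5 letters of the CCAAT box itself, the GC box as GGGCGG, the core word of ETS factors as CCGGAAG, the core word of the cyclic AMP response element (CRE) as TGACGT, that of the factor NRF1 as TGCGCA, that of ZNF143 as ACTACAA, that of YY1 as ATGGCGG and the TATA box as TATAAA. Words can overlap, as the GC box and the CCAAT box do in the ZNF584 sequence.
ZNF576, chr19:43596142-43596391, + strand: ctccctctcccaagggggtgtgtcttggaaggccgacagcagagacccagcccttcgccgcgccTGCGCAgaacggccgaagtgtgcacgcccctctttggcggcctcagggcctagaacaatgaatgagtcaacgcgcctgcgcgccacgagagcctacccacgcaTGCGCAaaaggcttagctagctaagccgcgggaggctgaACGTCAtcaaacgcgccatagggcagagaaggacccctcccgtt
ZNF787, chr19:56121296-56121545, - strand: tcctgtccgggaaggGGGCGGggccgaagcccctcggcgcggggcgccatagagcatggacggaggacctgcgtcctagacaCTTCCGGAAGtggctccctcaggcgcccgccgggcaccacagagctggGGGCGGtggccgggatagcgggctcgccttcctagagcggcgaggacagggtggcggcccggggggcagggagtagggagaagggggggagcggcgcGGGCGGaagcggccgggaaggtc
ZNF837, chr19:58381031-58381280, - strand: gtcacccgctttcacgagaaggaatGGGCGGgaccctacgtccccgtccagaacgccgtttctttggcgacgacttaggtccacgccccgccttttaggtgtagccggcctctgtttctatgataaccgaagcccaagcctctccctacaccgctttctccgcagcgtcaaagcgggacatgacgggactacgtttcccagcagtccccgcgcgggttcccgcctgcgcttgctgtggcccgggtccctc
ZNF584, chr19:58408399-58408648, + strand: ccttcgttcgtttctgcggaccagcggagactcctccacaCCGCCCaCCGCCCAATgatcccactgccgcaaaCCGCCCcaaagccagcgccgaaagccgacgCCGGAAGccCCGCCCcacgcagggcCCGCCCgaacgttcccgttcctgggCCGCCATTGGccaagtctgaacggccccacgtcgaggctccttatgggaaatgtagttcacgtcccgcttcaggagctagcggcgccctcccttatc
The ZNF584 stretch stands before a RefSeq start that lies 7091 bp inside the gene record, so it is not the stretch at its best promoter peaks. The second set holds the 3 genes with the lowest ZNF number that had no promoter peak in either list.
ZNF14, chr19:19733113-19733362, - strand: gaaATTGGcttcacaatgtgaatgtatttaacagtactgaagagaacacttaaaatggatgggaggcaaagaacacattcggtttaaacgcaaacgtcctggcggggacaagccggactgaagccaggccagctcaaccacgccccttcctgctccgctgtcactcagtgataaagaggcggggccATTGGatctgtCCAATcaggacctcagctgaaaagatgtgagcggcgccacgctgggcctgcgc
ZNF17, chr19:57410911-57411160, + strand: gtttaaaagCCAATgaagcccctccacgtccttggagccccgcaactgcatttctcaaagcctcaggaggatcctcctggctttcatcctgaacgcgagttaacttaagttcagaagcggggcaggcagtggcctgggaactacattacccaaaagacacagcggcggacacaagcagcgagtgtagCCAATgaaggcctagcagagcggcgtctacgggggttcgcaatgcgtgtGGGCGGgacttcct
ZNF20, chr19:12140351-12140600, - strand: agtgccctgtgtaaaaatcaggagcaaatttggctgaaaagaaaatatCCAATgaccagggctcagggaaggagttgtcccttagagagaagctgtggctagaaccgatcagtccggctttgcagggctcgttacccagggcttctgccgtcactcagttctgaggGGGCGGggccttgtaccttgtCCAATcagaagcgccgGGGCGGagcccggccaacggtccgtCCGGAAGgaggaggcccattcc
The ZNF787 stretch carries 2 ETS cores that overlap on opposite strands and 3 GC boxes, and the ZNF576 stretch carries 2 NRF1 cores and 1 CRE core. Each of the stretches without a peak carries CCAAT boxes, 3 at ZNF14, 2 at ZNF17 and 2 at ZNF20. The latter also holds an ETS core.

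Fewer ZNF promoters than other promoters of chromosome 19 carried a peak. PRMT6 peaks stood at 41 of the 240 ZNF promoters (17.1%, 95% interval 12.5% to 22.5%) and at 346 of the 1169 others (29.6%, 27% to 32.3%). PARP1 peaks stood at 50 ZNF promoters (20.8%, 15.9% to 26.5%) and at 364 others (31.1%, 28.5% to 33.9%). Peaks of both lists stood at 27 ZNF promoters (11.2%, 7.55% to 15.9%) and at 290 others (24.8%, 22.4% to 27.4%). With this window, the intervals of the gene groups do not overlap in any of these 3 pairs. With 1 kb on either side the PARP1 shares stood closer, at 19.6% for ZNF genes and 26.3% for the others. Over all protein-coding genes of the chromosome the shares were 27.5% for PRMT6, 29.4% for PARP1 and 22.5% for both. Over the whole genome they were 18.3%, 22.5% and 13.4%, and the ZNF shares lay within counting error of these values, since each of the 3 ZNF intervals includes the genome-wide share.

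The neighbourhood moved with this difference. Of the comparison genes, 101 lay within the spans of the ZNF clusters, defined as runs of at least 2 ZNF genes with gaps of up to 500 kb. Among these neighbours, 15 had a PRMT6 promoter peak (14.9%, 8.56% to 23.3%), 20 had a PARP1 promoter peak (19.8%, 12.5% to 28.9%) and 15 had both (14.9%, 8.56% to 23.3%). These shares overlap with those of the ZNF genes, and for each list alone the ZNF share was the higher one. The 1068 comparison genes outside the spans had 31% for PRMT6 and 32.2% for PARP1. Of the neighbours, 82 had no zinc finger symbol, and 14 of these had a PRMT6 peak (17.1%, 9.66% to 27%). No order between the ZNF genes and the other genes inside the clusters can be read from these shares.

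**Figure D1:**
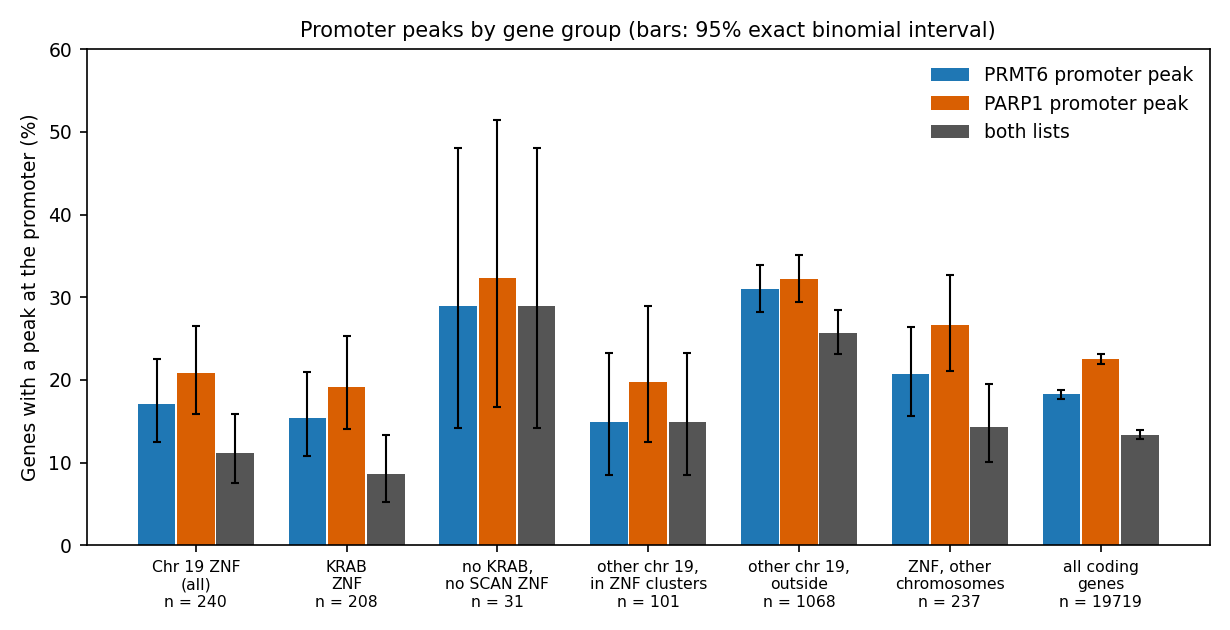
Share of genes with a promoter peak (y axis, percent) in gene groups (x axis, n below each name) for PRMT6 (blue), PARP1 (orange) and both lists at one promoter (grey). Error bars are 95% exact binomial intervals for counting error, and the ZNF bars at 17.1% and 20.8% stand below those of the other chromosome 19 genes outside the clusters at 31% and 32.2% but overlap with the genes inside the clusters.

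ZNF genes of the other chromosomes gave similar values. Among these 237 genes, 49 had a PRMT6 promoter peak (20.7%, 15.7% to 26.4%), 63 had a PARP1 promoter peak (26.6%, 21.1% to 32.7%) and 34 had both (14.3%, 10.1% to 19.5%). The intervals overlap with those of the ZNF genes of chromosome 19.

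The KRAB class and the ZNF genes without KRAB and SCAN differed in how often the lists met. PRMT6 peaks stood at 32 of 208 KRAB promoters (15.4%, 10.8% to 21%) and at 9 of 31 promoters of the genes without either domain (29%, 14.2% to 48%). PARP1 peaks stood at 40 KRAB promoters (19.2%) and at 10 of the others (32.3%, 16.7% to 51.4%). Both lists had a peak at 18 KRAB promoters (8.65%, 5.21% to 13.3%) and at 9 of the 31 (29%, 14.2% to 48%). For both lists together the intervals do not overlap, and for each list alone they do. All 9 genes without KRAB that had a PRMT6 peak also had a PARP1 peak, and ZNF580 alone had a PARP1 peak and no PRMT6 peak (PARP1 score 4.17, rank 10952). ZNF580 was named after its value was seen. In the KRAB class, 14 genes had PRMT6 only (6.73%, 3.73% to 11%) and 22 had PARP1 only (10.6%, 6.75% to 15.6%). Over all coding genes these shares were 4.88% and 9.09%, and both lie inside the KRAB intervals. Some of the genes without either domain stood beside another coding 5′ end, which was so for 5 of the 31 and for 10 of the 208 KRAB genes. Among those that stood alone, both lists had a peak at 6 of 26 genes without either domain (23.1%, 8.97% to 43.6%) and at 17 of 198 KRAB genes (8.59%, 5.08% to 13.4%), and these intervals overlap.

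Inside the large clusters the class difference was also present. Among members of clusters of 10 or more ZNF genes, both lists had a peak at 14 of 193 KRAB promoters (7.25%, 4.02% to 11.9%) and at 8 of 24 promoters without either domain (33.3%, 15.6% to 55.3%). On the other chromosomes the classes lay closer, with both lists at 13 of 117 KRAB promoters (11.1%, 6.05% to 18.3%) and at 19 of 112 promoters without either domain (17%, 10.5% to 25.2%). Whether the class difference is itself larger on chromosome 19 was not tested.

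The peaks at KRAB promoters ranked lower than those of the other gene groups, though near or above the middle of their lists. The best PRMT6 promoter peak had a median rank of 3482 over the 32 KRAB genes, of 752 over the 9 genes without either domain and of 1132 over the 346 other genes of chromosome 19. For PARP1 the median ranks were 6228, 2631 and 2281. Over all ZNF genes of chromosome 19 the median ranks were 2418 for PRMT6 and 5359 for PARP1. Over all coding genes with a promoter peak they were 2527 and 4396. The KRAB scores ran from 3.12 to 23.84 for PRMT6 with a median of 6.08 (5.51 over the whole list), and from 3.80 to 13.11 for PARP1 with a median of 6.24 (6.48 over the whole list). Over all ZNF genes, 11 of 41 PRMT6 promoter peaks (26.8%) and 5 of 51 PARP1 promoter peaks (9.8%) were in the best 10% of their list, against 42.2% and 26.1% at the other genes of the chromosome. Peaks of exactly the smallest width in the list, 288 bp for PRMT6 and 200 bp for PARP1, made up 34.1% and 27.5% of the ZNF promoter peaks, against 14.3% and 14.6%.

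**Figure D2:**
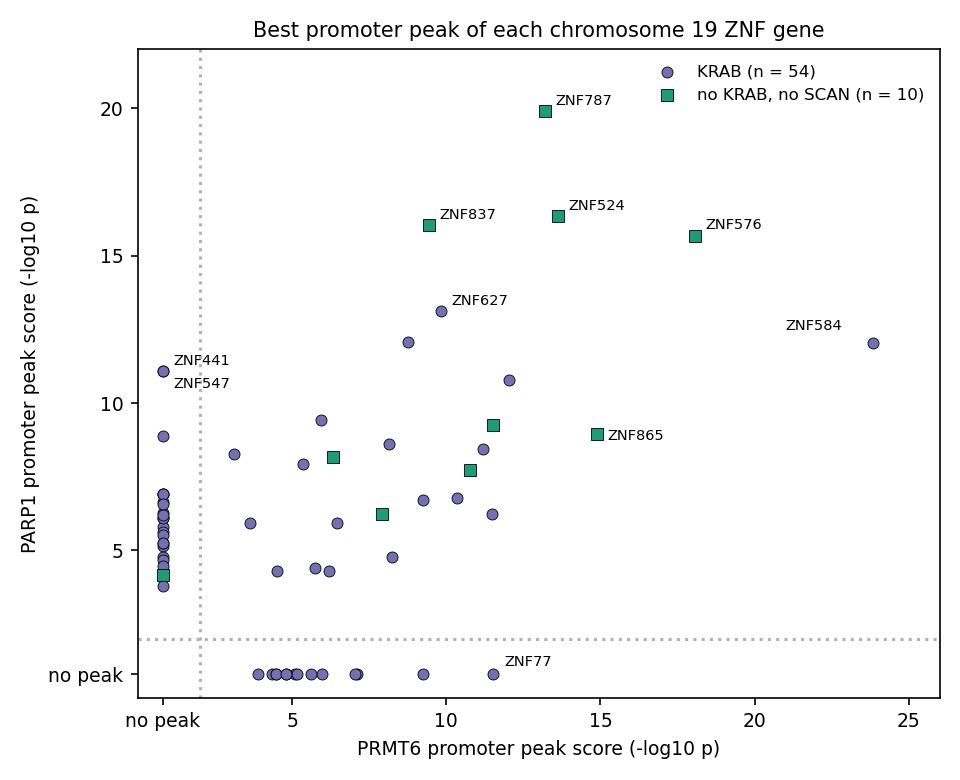
Score of the best PRMT6 promoter peak (x axis, −log10 p) against the score of the best PARP1 promoter peak (y axis, −log10 p) for the 64 ZNF genes with a promoter peak, by class, with genes lacking a peak in a list set at "no peak" outside the dotted lines. The genes without KRAB reach the highest PARP1 scores, 19.91 at ZNF787, whereas the highest PRMT6 score, 23.84, stands at the KRAB gene ZNF584.

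ZNF576 came first by the mean of its ranks. Its PRMT6 peak at chr19:43595993-43596468 had a score of 18.07 (rank 193) and spanned the 5′ end, and its PARP1 peak at chr19:43596108-43596391 had a score of 15.68 (rank 586). Both peaks also lay in the promoter window of IRGQ, an immunity-related GTPase-like gene, so they cannot be assigned to ZNF576 alone. The printed ZNF576 stretch lies inside the area of both peaks.

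ZNF787 followed, with a PRMT6 score of 13.20 (rank 522) and a PARP1 score of 19.91 (rank 267), and no other coding gene shared its window. ZNF524, whose protein binds telomeric repeats, had a PRMT6 score of 13.62 (rank 476) and a PARP1 score of 16.33 (rank 503). It shares its promoter with FIZ1, also a zinc finger gene. ZNF584, a KRAB gene, had the best PRMT6 peak of all ZNF genes with a score of 23.84 (rank 83), and a PARP1 score of 12.05 (rank 1253). ZNF837 had scores of 9.44 (rank 1268) and 16.03 (rank 550). In these 5 genes the PRMT6 peak reached across the 5′ end, whereas the PARP1 peak did so only at ZNF837 and otherwise ended 1 bp to 301 bp upstream of it.

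The next 5 genes were ZNF627, ZNF473, ZNF8, ZNF865 and ZNF497. ZNF627, a KRAB gene of the ZNF653 to ZNF791 cluster, had a PRMT6 score of 9.84 (rank 1139) and the best PARP1 score of the KRAB class, 13.11 (rank 986). ZNF473, known for its part in the processing of histone mRNA, had scores of 12.02 and 10.79, and its peaks also lay in the window of the pseudokinase gene VRK3. ZNF8 had scores of 8.75 and 12.08. The ZNF865 scores were 14.89 for PRMT6 and 8.96 for PARP1. ZNF497 had scores of 11.53 and 9.25. The other 17 genes with peaks in both lists were ZNF555, ZNF557, ZNF414, ZNF699, ZNF653, ZNF823, ZNF44, ZNF564, ZNF181, ZNF527, ZNF526, ZNF226, ZNF701, ZNF611, ZNF888, ZNF416 and ZNF324. Their PRMT6 scores ran from 3.12 at ZNF416 to 11.47 at ZNF324, and their PARP1 scores from 4.31 at ZNF181 and ZNF611 to 9.43 at ZNF888. Of the 10 genes that ranked best on average, 6 had neither KRAB nor SCAN. The 10 were drawn from the 27 genes with peaks in both lists, of which 9 had neither domain.

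PRMT6 alone had a promoter peak at 14 ZNF genes (5.83%, beside 4.88% of all coding genes). PARP1 alone had one at 23 (9.58%, beside 9.09% of all coding genes). Of the 14 ZNF genes with PRMT6 only, the best-ranked were ZNF77, ZNF446, ZNF682, ZNF160 and ZNF57, all of the KRAB class. ZNF77 had a score of 11.53 (rank 752) in a peak of 547 bp that spanned the 5′ end. ZNF446 had 9.26, ZNF682 had 7.10, ZNF160 had 7.05 and ZNF57 had 5.96. The other 9, which were ZNF878, ZNF714, ZNF573, ZNF221, ZNF284, ZNF615, ZNF583, ZNF71 and ZNF549, had scores from 3.88 at ZNF714 to 5.62 at ZNF583. All 14 were KRAB genes. Of the 23 genes with PARP1 only, the best were ZNF441 with a score of 11.09 (rank 1578), ZNF547 with 11.09 (rank 1597), ZNF766 with 8.89, ZNF235 with 6.93 and ZNF791 with 6.92. The ZNF547 peak also lay in the window of TRAPPC2B, a gene of vesicle tethering, and the ZNF791 peak in that of ZNF490. The other genes with PARP1 only ran from 3.80 at ZNF493 to 6.92 at ZNF490. Among them was ZNF274 (score 6.59, rank 5592), whose protein binds the 3′ ends of other zinc finger genes and recruits SETDB1 there. Its peak had the smallest width, 200 bp, and lay 658 bp downstream of the 5′ end. ZNF274 was named after its value was seen. The absence of a peak from a list says that none was called at this depth and not that the protein was absent.

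Where both lists had a peak at a ZNF promoter, the peaks overlapped in all 27 genes by at least 1 bp. Counted by distinct peaks, 27 of 41 PRMT6 promoter peaks of ZNF genes overlapped a PARP1 peak (65.9%, 49.4% to 79.9%), against 233 of 287 at the other genes (81.2%, 76.2% to 85.5%). Of 51 PARP1 promoter peaks of ZNF genes, 28 overlapped a PRMT6 peak (54.9%, 40.3% to 68.9%), against 239 of 322 (74.2%, 69.1% to 78.9%). The PARP1 intervals do not overlap, whereas the PRMT6 intervals do. Counted by gene, both lists met at 27 of 41 ZNF genes with a PRMT6 peak (65.9%, 49.4% to 79.9%). They met at 27 of 50 ZNF genes with a PARP1 peak (54%, 39.3% to 68.2%). Over all coding genes they met at 2637 of 3600 with a PRMT6 peak and at 2637 of 4430 with a PARP1 peak. In the KRAB class, 18 of 32 PRMT6 promoter peaks (56.2%, 37.7% to 73.6%) overlapped a PARP1 peak, and in the genes without either domain all 9 did (66.4% to 100%). The lower ranks of the ZNF peaks moved with this difference, and their part in it was not tested.

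The peaks sat close to the 5′ end. The centre of the best PRMT6 peak lay within 500 bp of the 5′ end in 39 of 41 ZNF genes (95.1%, 83.5% to 99.4%), against 246 of 346 other genes (71.1%, 66% to 75.8%). For PARP1 this was so in 45 of 50 ZNF genes (90%, 78.2% to 96.7%), against 262 of 364 (72%, 67.1% to 76.5%). The intervals do not overlap in either list. The 346 other genes held 287 distinct PRMT6 promoter peaks, so neighbours shared peaks, whereas the 41 ZNF genes held 41. Distances were not compared among genes that stood alone, and the part of shared peaks in this difference was not tested. The PRMT6 peak spanned the 5′ end in 28 of the 41 genes (68.3%) and the PARP1 peak in 25 of the 50 (50%). Measured from the 5′ end, with upstream as negative, the centre had its median at -119 bp in the PRMT6 list and at -67.5 bp in the PARP1 list.

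**Figure D3:**
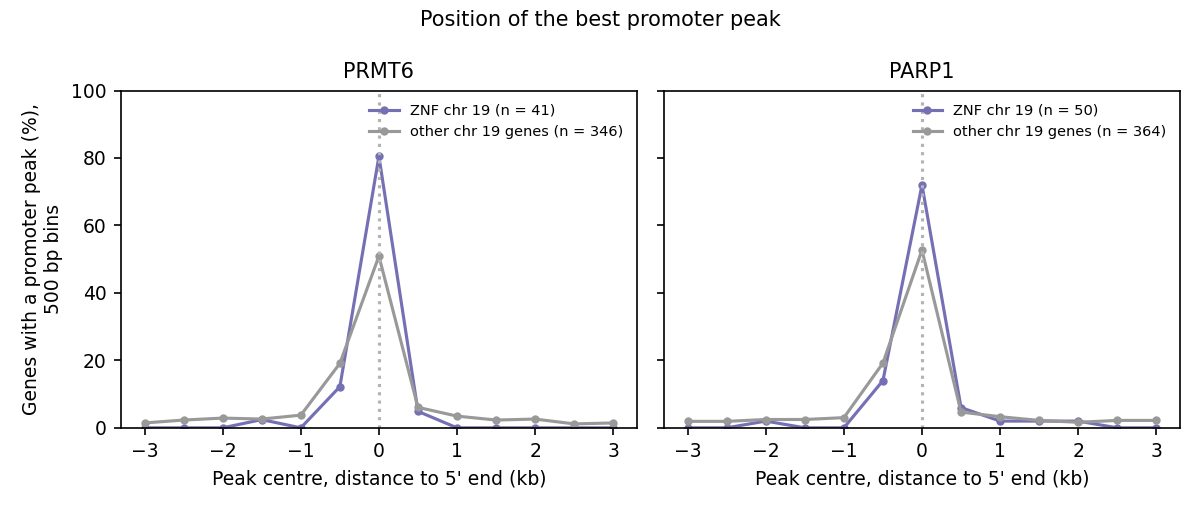
Share of genes with a promoter peak (y axis, percent) by the distance of the peak's centre from the 5′ end (x axis, kb, upstream negative, bins of 500 bp), for the PRMT6 list (left) and the PARP1 list (right). ZNF genes (purple, 41 and 50 genes) gather at the 5′ end, with median centres at -119 bp and -67.5 bp, and more tightly than the other genes of chromosome 19 (grey, 346 and 364 genes).

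Inside the gene records, outside every coding promoter window, the ZNF genes held few peaks. There were 22 PRMT6 peaks in 6.89 Mb (3.2 per Mb, 2 to 4.84) and 26 PARP1 peaks (3.78 per Mb, 2.47 to 5.53). In both gene groups the Mb are those of the full records, including the parts in promoter windows, where peaks were not counted. The densities are therefore not those of the sequence outside the windows. The other genes of the chromosome held 6.58 PRMT6 peaks per Mb (5.61 to 7.67) and 7.02 PARP1 peaks per Mb (6.02 to 8.14), and these intervals do not overlap with those of the ZNF genes. By gene, 19 ZNF genes held such a PRMT6 peak (7.92%) and 24 a PARP1 peak (10%), against 11.5% and 10.7% of the other genes, 10.9% and 10.6% of all genes of the chromosome, and 12.8% and 14% over the genome. The ZNF genes were longer, with a median of 23.1 kb against 12.8 kb. By gene, the intervals of the ZNF genes (4.83% to 12.1% for PRMT6 and 6.51% to 14.5% for PARP1) overlap with those of the other genes of the chromosome. The genome-wide PRMT6 share lies above the ZNF interval.

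Near the 3′ end, where the fingers are coded, the share of these peaks was not distinguishable from the share of record length. In the last 5 kb of the record, which stands here for the 3′ exons and makes up 17% of the ZNF record length, there were 2 of the 22 PRMT6 peaks (9.09%, 1.12% to 29.2%) and 4 of the 26 PARP1 peaks (15.4%, 4.36% to 34.9%). Both intervals include that 17%. The record length here includes the promoter windows, in which these peaks were not counted. In the other genes of the chromosome 16.6% of such PRMT6 peaks and 17.2% of such PARP1 peaks lay there, in 21.2% of the record length. The PRMT6 peaks lay in ZNF114 (score 5.55, 3587 bp from the 3′ end) and in ZNF227 (score 4.34, 3436 bp). The PARP1 peaks lay in ZNF570 (score 7.66), ZNF114 (score 7.42), ZNF792 (score 6.47) and ZNF671 (score 5.93). ZNF114 was the only gene with a peak of both lists there, and the peaks overlapped. The ZNF792 record is 7.88 kb long, so its peak at 3724 bp from the 5′ end lies in the middle of the gene. In the last 3 kb there was no PRMT6 peak and 1 PARP1 peak, at ZNF671, 672 bp from the 3′ end.

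Many of the peaks inside the records stood at other annotated starts. Of the 22 PRMT6 peaks, 9 had their centre within 1 kb of a RefSeq start site (40.9%, 20.7% to 63.6%), and of the 26 PARP1 peaks 14 did (53.8%, 33.4% to 73.4%). Both lists met at 6 of these 9 and at 6 of these 14, and at 2 of the 13 PRMT6 and 2 of the 12 PARP1 peaks that lay farther away. The best PRMT6 peak inside a record was that of ZNF444 (score 14.28, rank 422), whose centre lay 338 bp from an internal start. The peak of ZNF574 (rank 540) lay 174 bp from a start, and that of ZNF331, an imprinted gene, 54 bp (rank 1284). ZNF320 had a peak 98 bp from a start (rank 3023). The peak of ZNF507 (rank 694) lay 28372 bp from its own start, and 24629 bp from the nearest start in the RefSeq table. In the PARP1 list the best were ZNF574 (rank 433), ZNF507 (rank 1374), ZNF444 (rank 1488), ZNF254 (rank 1653, 44 bp from a start) and ZNF563 (rank 1853, 36 bp). Peaks of both lists overlapped inside 8 records, those of ZNF444, ZNF574, ZNF507, ZNF320, ZNF563, ZNF442, ZNF799 and ZNF114. At ZNF584 a PRMT6 peak of score 5.75 (rank 3935), which covers the printed stretch, had its centre 86 bp from the internal start.

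Along the chromosome the ZNF genes fell into 12 clusters of at least 2 genes and 8 single genes. The cluster from ZNF264 to ZNF446 at the long-arm end (chr19:57191500-58489533) held the most genes, with 41 of them, and 12 had a promoter peak in either list (29.3%, 16.1% to 45.5%). The peaks gathered at its outer end. Of its last 7 genes, ZNF8, ZNF497, ZNF837, ZNF584 and ZNF324 had peaks in both lists, ZNF446 had a PRMT6 peak only, and ZNF132 had none. This stretch was singled out with its values seen.

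The cluster from ZNF101 to ZNF254 next to the centromere on the short arm (chr19:19668153-24129968) had few. It held 37 genes, 36 of them KRAB, and 6 had a promoter peak (16.2%, 6.19% to 32%), 2 in PRMT6, 4 in PARP1 and none in both lists. Among the PARP1 peaks was that of ZNF91, a repressor of SVA elements, with a score of 6.09 and the smallest width, 200 bp. The median CpG content of these promoters, as observed over expected CpG number, was 0.438, the lowest of the clusters of 5 or more genes, and a median of 94.4% of their 32-base words were unique in the genome. The ZNF653 to ZNF791 cluster had a promoter peak at 10 of 25 genes (40%, 21.1% to 61.3%). ZNF175 to ZNF331 had one at 9 of 39 (23.1%), and ZNF565 to ZNF573 at 3 of 24 (12.5%). The intervals of all clusters of 5 or more genes overlap with one another.

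**Figure D4:**
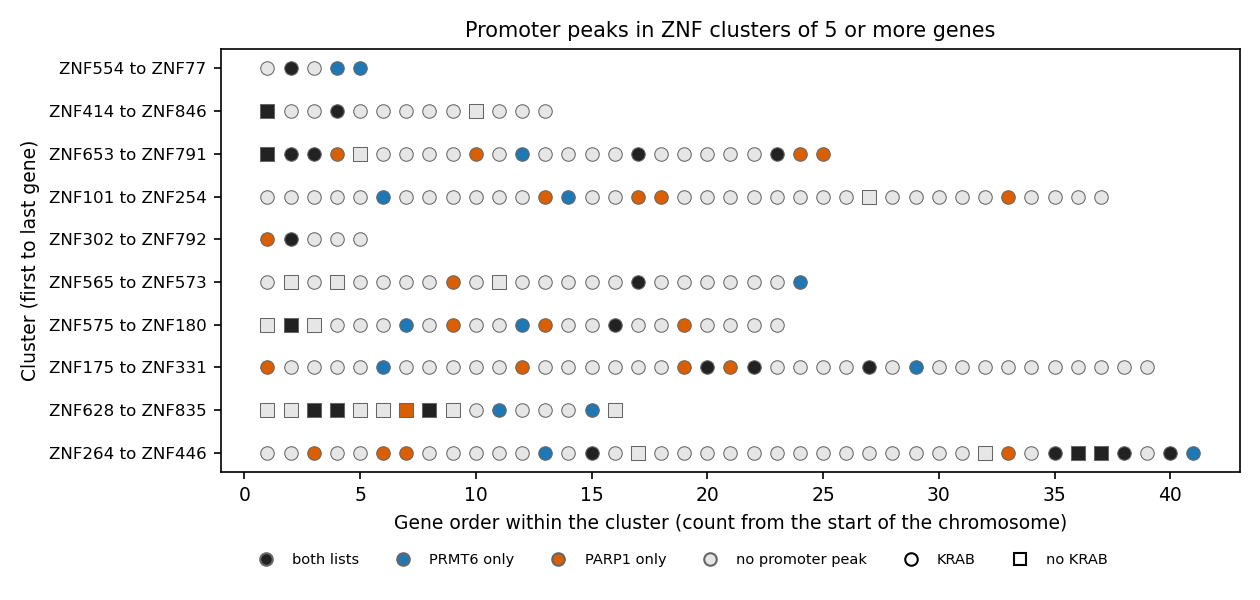
ZNF genes in their order along chromosome 19 (x axis, gene count within the cluster) for each cluster of 5 or more genes (y axis, named by first and last gene). Circles are KRAB genes and squares genes without KRAB, filled black for peaks in both lists, blue for PRMT6 only, orange for PARP1 only and light grey for no promoter peak, with 5 of the last 7 genes of the ZNF264 to ZNF446 cluster in black and none in black among the 37 genes of the ZNF101 to ZNF254 cluster.

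The lower shares of the ZNF genes were also present among promoters of like CpG content, except where it was low. CpG content was known for 210 ZNF genes, with a median of 0.763, and for 975 other genes, with a median of 0.729. It was taken at the RefSeq start nearest to the 5′ end of the record, around which peaks were sought. For 22 of the 210 ZNF genes that start lies over 3 kb from this end. The promoters of the chromosome were divided into 3 classes of equal size. In the middle class, PRMT6 peaks stood at 19 of 108 ZNF genes (17.6%, 10.9% to 26.1%) and at 103 of 287 others (35.9%, 30.3% to 41.7%). In the high class they stood at 14 of 65 (21.5%, 12.3% to 33.5%) and at 171 of 330 (51.8%, 46.3% to 57.3%). PARP1 showed the same order, with 18.5% against 40.1% in the middle class and 29.2% against 50.9% in the high class. In the low class, 4 of 37 ZNF genes (10.8%, 3.03% to 25.4%) and 8.38% of the others had a PRMT6 peak, and the intervals overlap there. From the low to the high class the PRMT6 share rose from 8.38% to 51.8% in the other genes and from 10.8% to 21.5% in the ZNF genes.

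**Figure D5:**
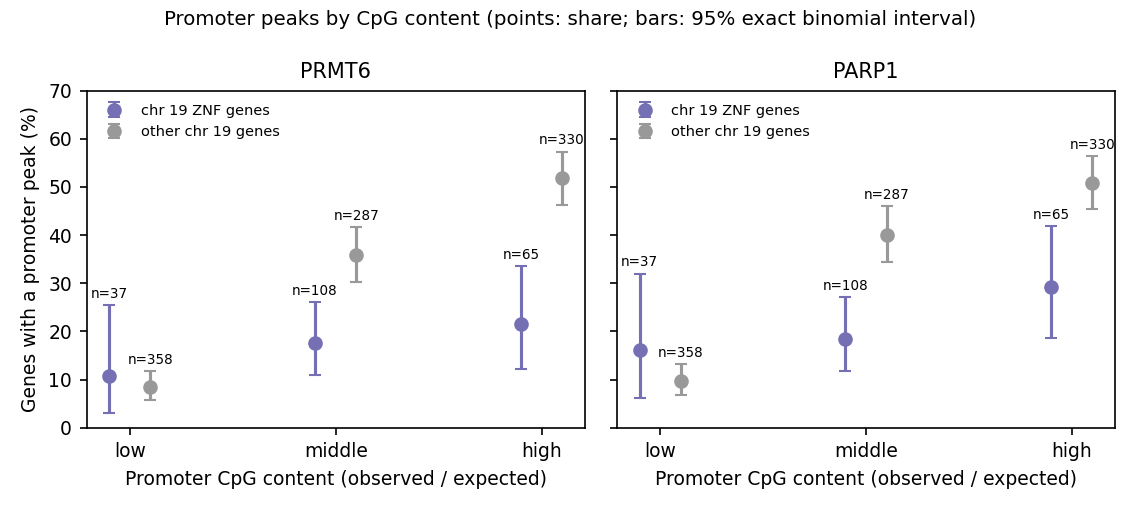
Share of genes with a promoter peak (y axis, percent) by class of promoter CpG content (x axis, observed over expected, with class borders at 0.547 and 0.841) for ZNF genes (purple) and other genes (grey) of chromosome 19, PRMT6 left and PARP1 right. Bars are 95% exact binomial intervals, and in the middle and high classes the ZNF genes (17.6% and 21.5% for PRMT6) stand below the others (35.9% and 51.8%).

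The share of promoters with mostly unique sequence was alike in the groups, as far as the 300 bases around the RefSeq start show. At least 90% of the 32-base words of the promoter were unique for 195 of 210 ZNF genes (92.9%) and for 92.8% of the others. Among these promoters PRMT6 peaks stood at 36 of the 195 ZNF genes (18.5%, 13.3% to 24.6%) and at 298 of 905 others (32.9%, 29.9% to 36.1%), and PARP1 peaks at 44 (22.6%, 16.9% to 29.1%) and at 34.5% (31.4% to 37.7%). The lower ZNF shares were thus also present among these promoters. The 300 bases are only part of the window in which peaks were sought, and the part of repeated sequence in the difference was not tested. Of the 15 ZNF genes with less unique promoters, 1 had peaks in both lists.

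The ZNF promoters shared sequence words that the choice of genes did not use. The ETS core CCGGAAG was found in the 300-base window, which reaches 50 bases past the start, in 92 of 210 ZNF promoters (43.8%, 37% to 50.8%), against 13.4% of the other promoters of the chromosome (11.4% to 15.7%) and 14.2% of all coding promoters. The KRAB class had it in 47.5% and the genes without either domain in 23.3%. The CCAAT box stood in 53.3% of ZNF promoters (46.3% to 60.2%), against 37.6% (34.6% to 40.8%) and 36.4% of all. By class it was 58.1% (50.5% to 65.4%) with KRAB and 23.3% (9.93% to 42.3%) without either domain. TATAAA was rarer, in 2.38% of ZNF promoters against 8%. The GC box stood in 69% against 65.3%, the NRF1 core in 18.6% against 11.9%, the CRE core in 11% against 10.5%, the ZNF143 core in 5.24% against 2.67% and the YY1 core in 8.57% against 8.21%. The ETS core and the CCAAT box stood at like shares of ZNF promoters with and without a peak. The ETS core stood in 44.8% of the 58 ZNF promoters with a peak in either list and in 43.4% of the 152 without, and the CCAAT box in 53.4% and 53.3%. Peaks were sought around the 5′ end of the record, whereas the words come from the nearest RefSeq start. These lie over 3 kb apart in 22 of the 210 genes. Among the 22, ZNF442, ZNF563, ZNF799, ZNF320, ZNF444, ZNF331, ZNF254, ZNF846 and ZNF749 have a peak of either list at that start. They count as without a peak here. The CRE core stood in 17.2% (8.59% to 29.4%) and 8.55% (4.63% to 14.2%), and these intervals overlap. A match to a word is a description of the sequence and not a binding site.

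The genes that act with KRAB proteins were looked up as a list of 20 cofactors and related silencing genes. Of these, 9 had a PRMT6 promoter peak, 10 had a PARP1 promoter peak, and 8 had both (40%, 19.1% to 63.9%), beside 13.4% of all coding genes. TRIM28, the partner of the KRAB domain, had a PRMT6 score of 23.00 (rank 95) and a PARP1 score of 25.67 (rank 102), both across its 5′ end, and its gene lies on chromosome 19 beyond the outer end of the ZNF264 to ZNF446 cluster. DNMT1, the maintenance DNA methyltransferase, had scores of 11.47 and 8.60. Of the heterochromatin proteins, CBX3 had 12.35 and 9.13, CBX5 had 9.03 and 10.84, and CBX1 had PARP1 only, with 8.86. DAXX, a histone H3.3 chaperone, had 8.12 and 12.37, and HDAC1, a histone deacetylase, had 6.20 and 7.66. CHD3, a remodeler of the NuRD complex, had 6.28 and 7.06 in peaks 2838 bp and 2826 bp from its 5′ end. SETDB1 had PRMT6 only, with 8.15, and MPHOSPH8, a subunit of the HUSH complex, had PARP1 only, with 3.80. No promoter peak in either list was called at ATF7IP, HDAC2, TASOR, PPHLN1, MORC2, ATRX, SMARCAD1, SUMO2 or UHRF1. The cofactors were looked up only around the 5′ end of the gene record. For UHRF1 that end is at position 4903080, whereas its RefSeq start windows begin at 4909251 and beyond. These starts lie outside the promoter window used, so nothing was looked up there for UHRF1.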

How the data were processed

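The submitters' processing notes name CASAVA 1.4, Bowtie 0.12.8 and MACS or MACS2 (version not given), and the build hg19. Control library, thresholds and the treatment of duplicates are not given in the sources used here. The deposited value is the −log10 p-value of each peak, from 1 list per library, made by the authors without pooling. The positions go against hg19. On chromosome 19, 45.9% of PRMT6 and 44.3% of PARP1 peaks lay within 1 kb of a protein-coding 5′ end of GRCh38, against 18.7% and 18.4% with GRCh37 genes, so GRCh38 RefSeq records (GRCh38.p14) were used.

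Strand came from the RefSeq promoter table for 15843 genes and from the GENCODE gene of the same name for 3876. Both gave the same strand in 15226 of 15289 genes. For 337 genes, 42 of them on chromosome 19, no strand was found and they were left out. Exon borders of GRCh38 were not used here, so the last 5 kb of the record stands for 3′ exons. KRAB and SCAN classes came from translated GENCODE transcripts, in place of the RefSeq proteins that were planned, with at least 13 of 40 (KRAB) or 27 of 60 (SCAN) consensus residues matched. These minimums were set in the gap between matching and other proteins after seeing the match counts. Uniqueness is the share of 32-base words of the promoter window that occur once in GRCh37. Overlap meant 1 bp, computed in Python 3.11.15 with numpy 2.4.6, pandas 2.3.3 and scipy 1.17.1, and bedtools 2.31.1 gave the same 41 and 50 genes.

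Named are the 10 genes with peaks in both lists and the best mean rank, the best 5 with 1 list only, the best 5 per list with a peak inside the record, those with a peak in the last 5 kb, and the cofactors, of which 1 is part of the counts but is not reported here. Genes, lists and alternatives were chosen with earlier results of these data known. Alternatives covered the window, the score, the smallest widths, the list length, the comparison genes, the overlap and the cluster gap. The start sites of the RefSeq table were added after seeing the data. On simulated data, 200 of 200 planted promoters were found. This checks only the lookup of peaks in windows and not the authors' peak calling or the genome build.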

Additional observations from a re-analysis of the deposited data

How the results depend on the processing

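No paired analysis was possible because PRMT6 and PARP1 have 1 library each. Of 67 alternative values, 39 moved by less than their interval and 28 moved further. The ZNF share was lower than that of the other chromosome 19 genes in 22 of 24 comparisons of PRMT6, PARP1 and both lists. The exceptions were PRMT6 and PARP1 against the other genes inside the cluster spans (14.9% and 19.8%, with 14.9% for both lists). The 24 comparisons reuse the same peaks and are not independent. Cutting the PARP1 list to the PRMT6 length gave ZNF shares of 17.1% for PARP1 and 9.58% for both lists. Those of the other genes were 28.8% and 24.1%. The PRMT6 shares cannot change in this setting, although their comparison is among the 24. The ZNF genes with no other coding 5′ end in the window were set against the unfiltered other genes (29.6%, 31.1% and 24.8%). With 1 kb on either side the shares of the other genes fell to 25.1% for PRMT6, 26.3% for PARP1 and 21% for both, and with 2 kb upstream to 500 bp downstream to 25.7%, 26.9% and 21.6%. The ZNF shares were 16.7%, 19.6% and 11.2% with the first window and 17.1%, 19.6% and 11.2% with the second. Whether the intervals of the gene groups stay apart under the alternative settings is not given here. With the higher-scoring 50% of each list the ZNF shares were 12.1%, 11.2% and 7.08%, those of the other genes 24.5% for PARP1 and 21% for both, the density in ZNF records 1.45 and 1.6 peaks per Mb and the share of ZNF genes with such a peak 4.17% and 4.58%. Leaving out peaks of exactly the smallest width, the ZNF shares were 11.2% and 15.4%, those of the other genes 25.7% and 27.6%, the densities 1.02 and 2.32 per Mb and the record shares 2.92% and 6.25%. Within the last 3 kb there were 0 PRMT6 peaks and 1 PARP1 peak. With the start sites of the RefSeq table the ZNF shares were 20.4%, 25.4% and 13.8%, against 30.6%, 32.6% and 25.9%. Gaps of up to 1 Mb gave 16 clusters in place of 20. The cause of these shifts was not tested.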
